A study of Homo sapiens with 4 samples.

Results

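Peaks of higher H3K4me1 after depletion of LSD2 were described at 8 genes of the Wnt and beta-catenin pathway in HepG2, a human cell line from a liver tumour. H3K4me1 is a single methyl group on a lysine of histone H3 and is found at enhancers and beside promoters. LSD2 (gene KDM1B) is a demethylase that acts on this lysine. Cells grown in high-glucose medium had been transfected with an siRNA against LSD2 or with a control siRNA against GL3, the luciferase sequence. Of 4 groups of 1 library each (H3K4me1 ChIP and input of either condition), the deposited list sets the LSD2 siRNA ChIP library against the control ChIP library. A peak is a region that the authors called as higher in the knockdown library, and the list gives its chromosome, start and end only. No height or fold stands beside a peak, no condition is replicated, and the depth of the libraries is unknown, so no test between conditions was possible. The level of LSD2 and of other mRNAs was not measured here, so neither the knockdown nor the labelled cell type could be checked against marker genes.

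The members are the distinct peaks that overlap by at least 1 bp a gene span, or the 20 kb on either side of it, at CTNNB1, TCF7L2, LEF1, AXIN1, APC, AXIN2, LGR5 and GLUL. The rule gives each span on hg19 to the nearest kb. It found 80 peaks among 160601 in the whole list, over 1102 kb searched. Of the 8 loci, 7 held a peak and AXIN1 held none. As background, 96.6% of all windows of 100 kb held at least 1 peak. Beyond the searched stretches, the next peaks lay 20.6 to 65.4 kb from the spans and were 155 to 630 bp wide. The outermost member, a GLUL peak of 217 bp that crosses the limit, began 19.9 kb from its span.

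In the Wnt pathway a secreted ligand stops the breakdown of beta-catenin, the product of CTNNB1. Without ligand, a destruction complex built on AXIN1 and APC holds beta-catenin for phosphorylation and degradation. Stabilised beta-catenin enters the nucleus and binds TCF and LEF proteins, which include the products of TCF7L2 and LEF1, at target genes. AXIN2 and LGR5 are widely used target genes, and GLUL is a target in the liver, where it marks the hepatocytes around the central vein. HepG2 cells are known to carry a deletion within CTNNB1 that stabilises the protein, and both conditions share it.

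TCF7L2 and APC are shown first by sequence. Each has more than 1 start in the RefSeq promoter table (GRCh38.p14), and both hold tight groups of peaks. GLUL also meets both points, with a later start 0.449 kb after the first, and is not shown. Each line gives the 250 bases before each start on the plus strand, at chr10:112949997-112950246, chr10:113126383-113126632 and chr10:113129021-113129270 for TCF7L2 and at chr5:112707248-112707497 and chr5:112737635-112737884 for APC, 5′ to 3′. Capitals mark a match to the core sequence bound by TCF and LEF proteins.
TCF7L2 first start: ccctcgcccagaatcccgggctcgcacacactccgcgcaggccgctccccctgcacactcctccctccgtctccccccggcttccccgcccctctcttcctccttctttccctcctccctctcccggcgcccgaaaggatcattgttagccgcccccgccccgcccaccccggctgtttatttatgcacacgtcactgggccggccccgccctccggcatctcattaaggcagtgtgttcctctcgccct
TCF7L2 second start: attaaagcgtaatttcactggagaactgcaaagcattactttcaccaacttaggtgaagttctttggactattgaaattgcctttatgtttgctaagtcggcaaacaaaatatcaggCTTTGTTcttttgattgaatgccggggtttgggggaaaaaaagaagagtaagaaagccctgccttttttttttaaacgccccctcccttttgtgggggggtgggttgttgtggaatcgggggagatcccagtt
TCF7L2 last start: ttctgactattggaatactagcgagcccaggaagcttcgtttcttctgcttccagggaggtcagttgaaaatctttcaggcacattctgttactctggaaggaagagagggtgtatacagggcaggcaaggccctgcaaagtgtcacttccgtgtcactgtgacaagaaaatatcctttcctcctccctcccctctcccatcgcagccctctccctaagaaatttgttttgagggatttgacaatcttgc
APC first start: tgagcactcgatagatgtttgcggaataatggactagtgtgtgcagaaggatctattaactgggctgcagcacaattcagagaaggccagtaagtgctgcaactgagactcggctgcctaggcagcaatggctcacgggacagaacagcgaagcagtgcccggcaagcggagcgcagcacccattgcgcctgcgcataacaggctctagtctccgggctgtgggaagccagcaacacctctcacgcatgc
APC second start: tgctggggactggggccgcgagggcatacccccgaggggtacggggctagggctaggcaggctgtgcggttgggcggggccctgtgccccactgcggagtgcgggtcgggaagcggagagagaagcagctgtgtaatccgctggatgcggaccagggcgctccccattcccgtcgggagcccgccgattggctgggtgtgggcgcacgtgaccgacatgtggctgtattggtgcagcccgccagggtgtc

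The promoter table held 10 windows of 300 bases for 6 of the 8 genes (CTNNB1, TCF7L2, LEF1, AXIN1, APC and GLUL). Each window was searched on both strands for CTTTGAT, for CTTTGAA, for CTTTGTT and for CTTTGTA. No matches overlap in a window of a member. Only the window of the second TCF7L2 start held a match, CTTTGTT, whose first base lies 133 bases before the start. Among all 35116 windows of the table, 13.8% held a match. A match is a stretch of letters and was not tested as a binding site. The peaks lie on hg19, for which no genome sequence was at hand, so the sequence under the peaks was not analysed here.

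Over the 8 loci, the density was 72.6 peaks per Mb (95% Poisson interval 57.6 to 90.4), against 56.2 per Mb over all chromosomes. The ratio was 1.29 (1.02 to 1.61). This interval covers counting error only and treats peaks as independent, although 58.8% of the members had another peak within 5 kb. At the densities of their own chromosomes the same lengths would hold 65.8 peaks, which gives a ratio of 1.22 with an interval (0.96 to 1.51) that includes 1. Without TCF7L2, the ratio to all chromosomes was 1.16 (0.874 to 1.51). Peaks are not replicates, so no test was made and these values describe a single pair of libraries.

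**Figure D1:**
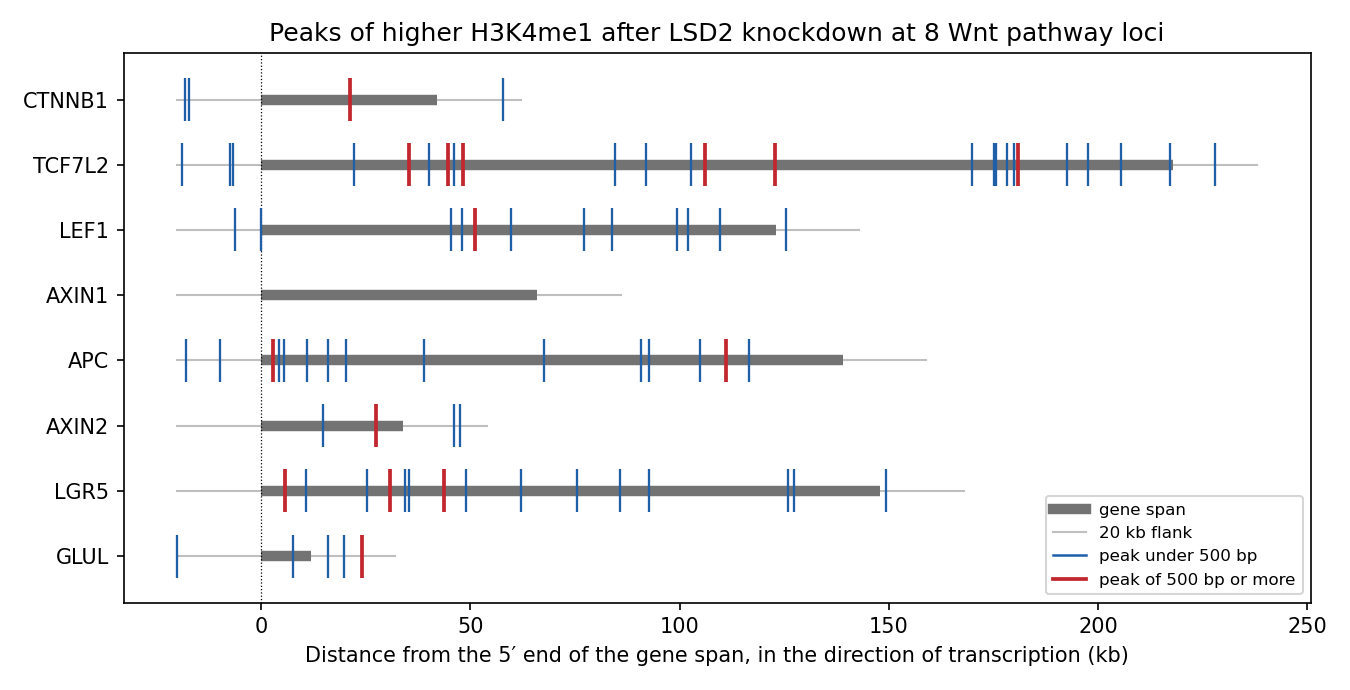
Position of every member peak along each gene. The horizontal axis is the distance from the 5′ end of the gene span in kb, in the direction of transcription, thick bars are gene spans, thin lines are the 20 kb flanks, and vertical ticks are peaks, in red where 500 bp or wider. TCF7L2 carries 25 ticks, with a group near 180 kb, while AXIN1 carries none.

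CTNNB1, which encodes the effector beta-catenin, held 4 peaks in 82 kb, or 48.8 peaks per Mb (13.3 to 124.9), against 58.9 for chromosome 3. Of the windows of this length across the genome, 59.5% held at least 4 peaks. Inside the gene lay a single peak, at chr3:41260766-41261670, which was 905 bp wide and began 20.8 kb into the span. In the list, 1.38% of all peaks were as wide, a share for single peaks and not for the widest of a locus. Both peaks upstream, at 17.2 and 18.03 kb from the 5′ end, were narrow (162 and 184 bp), and 38.0 kb without a peak separated them from the peak inside the gene. The stretch around the 5′ end of CTNNB1 was therefore free of peaks for at least 17.2 kb on either side. The peak 57.5 kb from the 5′ end, 425 bp wide, lies past the end of the span, on the side where ULK4 is the next protein-coding gene in the GRCh38.p14 gene table.

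TCF7L2, a DNA-binding partner of beta-catenin, held the most peaks of the 8 loci. Its 25 peaks in 258 kb gave 96.9 peaks per Mb (62.7 to 143), against 68.3 on chromosome 10. Windows of this length had a median of 14 peaks, and 9.21% held at least 25. Within chromosome 10 the median was 17, and 16.6% of the windows held at least 25. The interval for the locus includes the density of the chromosome. Of the 25 peaks, 21 lay inside the gene, 3 upstream and 1 downstream.

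Wide peaks were part of the TCF7L2 pattern. The widest was chr10:114757679-114758971 at 1293 bp, and 0.279% of all peaks in the list were as wide. That share is for single peaks, while this peak was picked as the widest of its locus. Next came chr10:114832224-114833422 at 1199 bp. These were the only members of 1 kb or more. Another pair, at 105.6 and 44.1 kb from the 5′ end, were 991 and 958 bp wide. The remaining 21 peaks of the gene and its flanks ranged from 162 to 672 bp.

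Peaks of TCF7L2 stood in 2 runs, defined as at least 3 peaks with no more than 5 kb from one to the next. Such runs were not counted over the whole list, where 52.2% of all peaks had another within 5 kb. The first run had 5 peaks between 34.9 and 48.97 kb from the 5′ end (chr10:114744942-114758971) and held the widest peak of the gene. The second had 6 peaks between 169.7 and 181.2 kb (chr10:114879732-114891155), 169 to 672 bp wide. Between them lay the longest gap of the locus, 46.3 kb without a peak. Of the 21 peaks inside the gene, divided into 3 equal parts, 6 lay in the part at the 5′ side, 5 in the middle part and 10 in the last part.

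The second run of TCF7L2 lay at about the depth in the gene at which the promoter table places the second and the last start printed above. On GRCh38.p14, those starts lie 176.4 and 179.02 kb after the first start. On hg19, the peaks of the run next to these distances spanned 175.5 to 175.8, 178.2 to 178.5 and 179.8 to 180.1 kb from the 5′ end of the span. Read without alignment, each start fell between neighbouring peaks. The distances come from different builds, no position was converted, and the span is rounded to 1 kb, which is enough to change that reading, so the match was not tested. At the first start, no peak lay between 6.42 kb upstream and 22.1 kb downstream.

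LEF1, the other DNA-binding partner, held 12 peaks in 163 kb, or 73.6 peaks per Mb (38.04 to 128.6), against 53.7 on chromosome 4. At least 12 peaks were found in 28.7% of the windows of this length. It was the only locus with a peak at the 5′ end of its span, chr4:109090852-109091022, 171 bp wide. In the gene table this side of LEF1 overlaps the antisense gene LEF1-AS1, and the list does not tell strands apart. From that peak, 45.1 kb without a peak led to a run of 3 peaks between 45.3 and 51.5 kb from the 5′ end. That run held the widest peak of the locus, chr4:109039509-109040446, at 938 bp. The other 11 peaks were 171 to 438 bp wide, and the median of the locus was 269.5 bp. Of the 10 peaks inside the gene, 1 lay in the part of the gene at the 5′ side, 5 in the middle part and 4 in the last part.

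AXIN1, the scaffold of the destruction complex, held 0 peaks in 106 kb, which allows a density of up to 28.3 peaks per Mb (3 counts, counting error only). Chromosome 16 had 63.3 peaks per Mb, at which 6.71 peaks would be found over this length. At least 1 peak was found in 96.8% of the windows of this length across the genome, and on chromosome 16 only 13 of 744 such windows held none. The nearest peaks were chr16:305766-306036, 30.96 kb from the lower end of the span, and chr16:455715-456006, 52.7 kb from the upper end. Together they bound 149.7 kb without a peak, a gap reached by 0.4% of all gaps between neighbouring peaks, whose median was 10.1 kb. The first Mb of chromosome 16, which holds the AXIN1 locus, was itself sparse, with 26 peaks, of which 12 lay below the locus. At that density 2.76 peaks would be found over the locus, which is within the 3 counts that a count of 0 allows. That density includes the empty locus itself and lies just below the limit. These counts therefore cannot decide whether AXIN1 is set apart from its surroundings. In the gene table, AXIN1 has 6 protein-coding neighbours within 20 kb, the most of the 8 genes, among them PDIA2, ARHGDIG and MRPL28. A region without a peak may have equal or lower H3K4me1 in the knockdown library, or too few reads for a call, and the list cannot tell these apart.

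APC, the partner of AXIN1 in the destruction complex, held 15 peaks in 179 kb, or 83.8 peaks per Mb (46.9 to 138.2), against 52.95 on chromosome 5. The limit for AXIN1 (28.3 peaks per Mb) lies below the interval for APC. That limit is a set 3 counts and not a bound of the exact interval used for APC. In addition, AXIN1 lies in a sparse stretch of its chromosome. At least 15 peaks were found in 19.7% of the windows of this length. Near the 5′ end of APC, 6 peaks formed 2 runs between 2.39 and 20.3 kb, with no background for such runs. The nearest to the 5′ end, chr5:112045386-112046085, was the widest of the locus at 700 bp. A second wide peak of 695 bp lay 110.7 kb from the 5′ end.

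Of the 13 peaks inside APC, 7 lay in the part at the 5′ side and 3 in each of the other parts of equal length. The longest gap, 28.3 kb, ran from 39.2 to 67.5 kb. On GRCh38.p14, the second APC start printed above lies 30.4 kb after the first. On hg19 no peak lay between 20.3 and 38.9 kb from the 5′ end, so none was near that distance, with the same limit of unaligned builds.

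AXIN2, a target gene whose product acts back on the pathway as an inhibitor, held 4 peaks in 74 kb. Its density of 54.05 peaks per Mb (14.7 to 138.4) was below that of chromosome 17 (64.6), well within counting error. At least 4 peaks were found in 53.6% of the windows of this length. Inside the gene lay chr17:63530092-63531083, 992 bp wide and 26.9 kb from the 5′ end, and a peak of 319 bp at 14.7 kb. Of all peaks in the list, 0.931% were as wide as the former, a share for single peaks and not for the widest of a locus. The remaining pair, 450 and 265 bp, lay downstream, past the longest gap of the locus, 18.03 kb from 27.9 to 45.9 kb. No peak lay in the upstream flank or in the first 14.7 kb of the gene.

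LGR5, a target gene that encodes a receptor for R-spondins and marks stem cells in several tissues, held 15 peaks in 188 kb. This was 79.8 peaks per Mb (44.7 to 131.6), against 56.99 on chromosome 12, and 22.4% of the windows of this length held at least 15. Its peaks had the highest median width of the 7 loci with a peak, 396 bp, which equals the upper quartile of the whole list. None of them reached 900 bp, and the widest, chr12:71838409-71839024 at 616 bp, was also the nearest to the 5′ end, at 5.41 kb. Of the 14 peaks inside the gene, 8 lay in the part at the 5′ side, 4 in the middle part and 2 in the last part. A run of 4 peaks spanned 25.2 to 35.6 kb, and the longest gap, 32.8 kb, ran from 92.96 to 125.7 kb.

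GLUL, which encodes glutamine synthetase, held 5 peaks in 52 kb, or 96.2 peaks per Mb (31.2 to 224.4), against 55.3 on chromosome 1. At least 5 peaks were found in 21.2% of the windows of this length. The span is only 12 kb long, and a single peak of 252 bp lay inside it, at 7.44 kb from the 5′ end. A run of 3 peaks between 15.9 and 24.5 kb lay downstream and held the widest peak of the locus, chr1:182337547-182338086, at 540 bp. The count of GLUL therefore rests on its flanks. With a flank of 0 kb the density was 83.3 peaks per Mb (2.11 to 464.3), from the single peak inside the span. Its longest gap, 27.3 kb, spanned the 5′ end, from 19.9 kb upstream to 7.44 kb downstream.

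**Figure D2:**
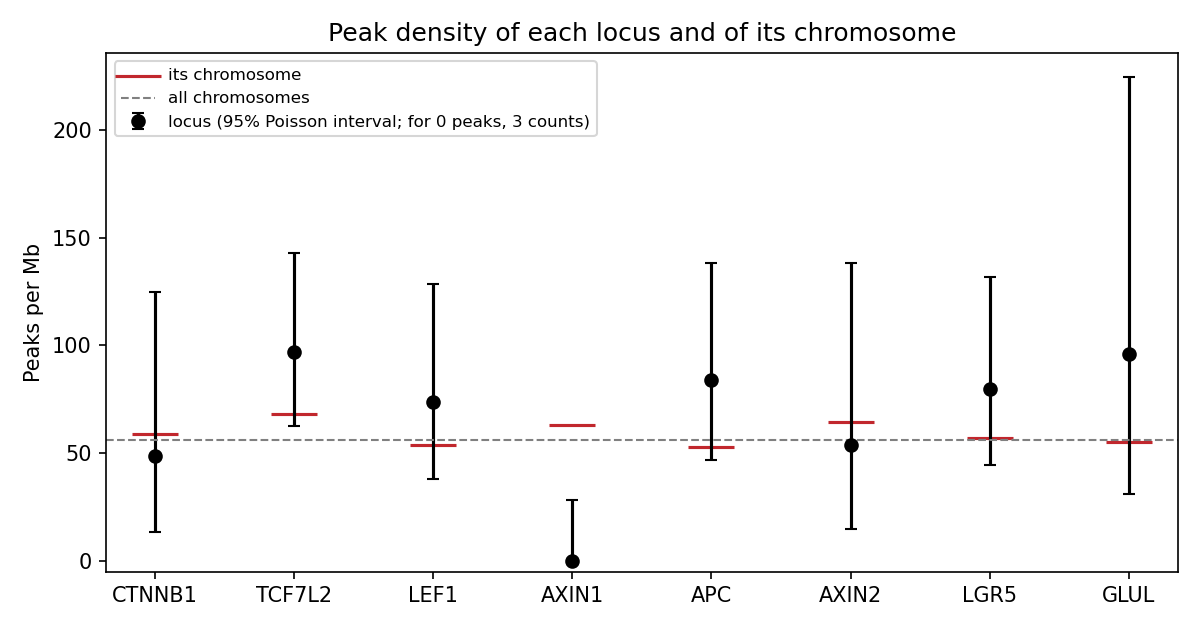
Peaks per Mb of each locus (points), with 95% Poisson intervals for counting error, the density of its own chromosome (red bars) and of all chromosomes (dashed line). For AXIN1 the bar ends at the 28.3 peaks per Mb that a count of 0 allows (3 counts), below the 63.3 of chromosome 16. This end lies just above the 26 of the first Mb, which includes the empty locus. Every other interval includes the density of the chromosome.

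By role, the DNA-binding partners had 96.9 and 73.6 peaks per Mb, the destruction complex 0 and 83.8, and the targets 54.05, 79.8 and 96.2. In order of density the loci were TCF7L2, GLUL, APC, LGR5, LEF1, AXIN2, CTNNB1 and AXIN1. The intervals of the first 7 overlap each other, so neighbours in this order do not differ beyond counting error. In all, 5 of the 8 loci were denser than their chromosome. The share of windows denser than their chromosome was not counted, so this count has no background. No interval but that of AXIN1 excludes the density of the whole chromosome. The limit for AXIN1 lies just above the density of the first Mb of chromosome 16, which includes the empty locus. That comparison therefore does not decide whether AXIN1 is set apart from its surroundings.

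Peaks were somewhat more frequent inside the gene spans than in the flanks, without exceeding counting error. Of the 80 peaks, 62 lay inside (77.5%, 95% Wilson interval 67.2 to 85.3%), where the spans make up 70.96% of the searched length. The densities were 79.3 peaks per Mb inside (60.8 to 101.6) and 56.3 in the flanks (33.3 to 88.9). Around the 5′ ends the counts of peaks did not differ from the density of the whole list beyond counting error. They were small, with intervals of 5.05 to 150.5 peaks per Mb within 3 kb and 29.97 to 114.9 within 10 kb. Lower and higher densities are therefore both possible. Within 3 kb of the 5′ end, only LEF1 and APC had a peak, 2 peaks in all, where the density over all chromosomes would give 2.7. Within 10 kb, 5 of the 8 genes had a peak, with 10 peaks in all against 8.99 at that density. AXIN2 and CTNNB1 had their nearest peaks at 14.7 and 17.2 kb.

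The widths of the members centred on the same value as those of the list. Their median was 310.5 bp (95% order-statistic interval 269 to 374), with quartiles of 226 and 441 bp, against 316 bp and quartiles of 229 and 396 bp for all peaks. Of the 80 members, 40 were at or above the median width of the list. At the wide end, 7 members were 900 bp or wider (8.75%, 95% Wilson interval 4.3 to 17.0%), against 1.43% of the list. TCF7L2 held 4 of them, and CTNNB1, LEF1 and AXIN2 held 1 each. The limit of 900 bp was chosen after the widths were seen. At 1 kb, 2 members (2.5%, 0.688 to 8.66%) stood against 0.899% of the list, which lies within the interval. Every locus with a peak had at least 1 of 500 bp or more, a limit also chosen after the widths were seen. The share of windows with such a peak was not counted, so the count of loci has no background. Peaks of this width were 15 in all (18.8%, 11.7 to 28.7%), against 11.2% of the list.

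**Figure D3:**
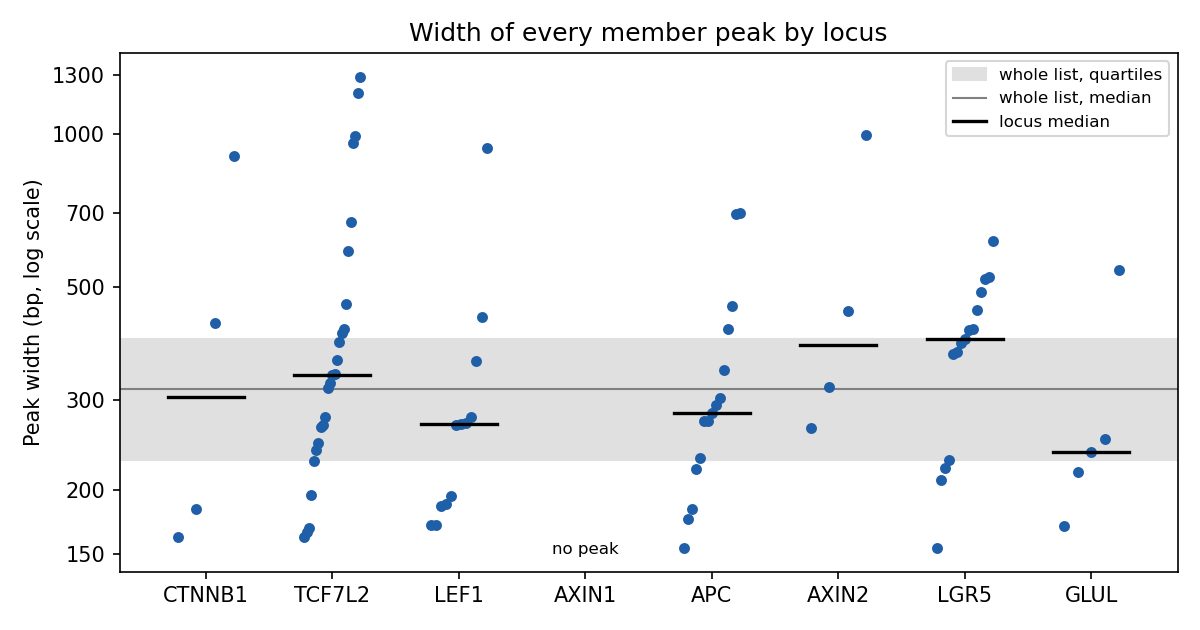
Width of each member peak in bp on a log axis, by locus, sorted within the locus, with the locus median (black bar) and the median and quartiles of the whole list (grey line and band). TCF7L2 reaches 1293 bp, the medians of the loci run from 238 bp at GLUL to 396 bp at LGR5, and AXIN1 has no peak.

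Members stood close together about as often as other peaks. Another peak lay within 5 kb of 47 of the 80 (58.8%, 95% Wilson interval 47.8 to 68.9%), against 52.2% of the list. The closest neighbours were a pair in the second run of TCF7L2, 0.3 kb apart. Some peaks of the list are written in several identical rows, for a reason that the sources used here do not give. Among the members, 7 stood in 2 rows and none in more, a share of 8.75% (4.3 to 17.0%) against 10.7% of the list. They were the downstream peak of CTNNB1, a peak of 590 bp in TCF7L2, the 5′ peak of LEF1, the peak of 319 bp in AXIN2, the widest peak of LGR5 and both peaks of APC near 67.5 and 116.4 kb.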

How the data were processed

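H3K4me1 ChIP and input libraries of control and LSD2 siRNA HepG2 cells were sequenced, 1 library in each of 4 groups. Per the file headers, the authors called peaks with MACS on the LSD2 siRNA ChIP library over the GL3 siRNA ChIP library, after trimming reads and removing duplicates. The header gives a read and fragment length of 128 bp, a p-value cutoff of 1e-05 and an enrichment factor of 32. The submitters' processing notes name BWA and hg19, with no versions. The deposited columns are positions only, so no other value of a peak was used, and the read totals of the libraries are unknown. Input libraries were not analysed here.

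Identical rows were counted once, and positions are 1-based on hg19. Density is the number of peaks per Mb, where the length of a chromosome excludes its ends beyond the outermost peaks and any gap without peaks over 1 Mb. Background windows have the length of a locus, do not overlap, and count every peak that touches them. Intervals (95%, Poisson, Wilson or order-statistic) cover counting error only. Peaks called after removal of duplicates depend on the unknown depth of both libraries. Strand was taken from the RefSeq promoter table or, for AXIN2 and LGR5, from general knowledge. Members, lists and limits were chosen with earlier results of these data known. All 8 genes were named. Those with peaks were given with the widest peak, the peak nearest the 5′ end, the longest gap and any peaks in several rows. Alternatives covered the flank, merging within 1 kb, counting rows, wider peaks, midpoints, covered bases and leaving out each locus. A planned count over other Wnt pathway genes needs an hg19 annotation and was not run. Scripts were tested on simulated data. Python 3.11.15, NumPy 2.4.6 and SciPy 1.17.1 were used.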

Additional observations from a re-analysis of the deposited data

How the results depend on the processing

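Of 51 alternatives on the values pooled over the loci, 46 left a value within its counting interval, or the number of peaks within 1.5-fold. With peaks at or above the list's median width only, 40 peaks remained, at 36.3 per Mb and a median width of 444 bp. Such a cut can only lower the count and raise the median width. The ratio to all chromosomes was 1.29 again. The share of peaks inside the spans was 95.4% with a flank of 5 kb and 56.4% with 50 kb, by construction, since the flank sets the length outside. The ratio to all chromosomes ran from 1.16 without TCF7L2 to 1.43 without AXIN1 and was 1.47 by covered bases. Its interval included 1 without TCF7L2 (0.874 to 1.51), APC (0.968 to 1.6) or LGR5 (0.977 to 1.61) and with the wider peaks (0.922 to 1.76). AXIN1 held 0 peaks with flanks of 0, 5 and 20 kb and 18.1 per Mb with 50 kb. No paired analysis was possible because the list compares 1 library with 1 other, and no library could be left out. Unknown depth limits every count.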
